A study of Mus musculus with 22 samples.

Results

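Carboxylesterases are serine hydrolases that cleave the ester, amide and thioester bonds of drugs, pesticides and lipids. In the mouse they form a large tandem family of Ces1 to Ces5 genes, and the liver is one of their main sites of expression. Most are held in the endoplasmic reticulum by a short signal at the end of the protein, where they meet lipid droplets and nascent lipoproteins as well as foreign compounds, and a few are secreted into the blood. Here 10 members were followed across pregnancy and microbiota status: Ces1b, Ces1c, Ces1d, Ces1e, Ces1f, Ces1g, Ces2a, Ces2c, Ces2e and Ces3a. They were chosen by name, as 10 of the 20 genes with a Ces symbol among 53392 genes in the table. All 10 passed the filter on low counts that left 15928 genes for testing, and their lowest estimated count in any library was 221 (Ces2c).

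Liver RNA came from 22 female C57BL/6 mice given the same autoclaved diet, with 1 library per mouse. Conventional mice, which carry an ordinary gut microbiota, made up a non-pregnant group of 6 and a pregnant group of 5, and germ-free mice, raised without microorganisms, a non-pregnant group of 6 and a pregnant group of 5. Livers of pregnant mice were collected at gestation day 15. For germ-free mice this day is an estimate, because mating pairs were housed together for several days, so gestational age cannot be told apart from microbiota status in the pregnant groups. The age label, given with no unit, was 70 or 77 for each conventional mouse and lay between 91 and 121 for the germ-free mice, so age and germ-free status cannot be told apart either. The series' title asks how the microbiome affects drug-processing genes of the pregnant liver.

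Library totals were 18064491 to 30036912 estimated counts, and 5.90% to 32.0% of counts came from mitochondrially encoded genes. The 6 hepatocyte markers (Alb, Apoa1, Ttr, Cps1, Asgr1, Cyp2e1) summed to between 49985 and 229895 CPM (counts scaled to the effective library size) in each library. Of the small-intestine markers, Sis was at 0 in all 22 libraries and Lct was at most 0.105 CPM. Mouse 2 of 3 groups stood apart. Conventional pregnant mouse 2 had 2049 CPM of Saa1 and 2156 CPM of Saa2, acute-phase genes that reached at most 62.2 and 43.5 CPM elsewhere, and the lowest member sum of its group. Germ-free non-pregnant mouse 2 had the lowest member sum of its group, 3207 CPM, with 27.0% mitochondrial counts, and was the lowest of its group for 7 of the 10 genes. Germ-free pregnant mouse 2 carried markers of other cells, with 62.8 CPM of Krt19, 19.1 of Epcam, 12.6 of Krt7 and 35.8 of Des, which reached at most 3.74, 3.07, 5.08 and 11.0 CPM elsewhere. Its exocrine pancreas marker Ctrb1 was at 12.9 CPM.

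All 10 genes lie on mouse chromosome 8 (GENCODE M21 gene models, GRCm38), in blocks on opposite strands. The Ces1 genes stand side by side on the minus strand: Ces1b at chr8:93056728-93080017, Ces1c at chr8:93099015-93131283, Ces1d at chr8:93166068-93197838, Ces1e at chr8:93201218-93229619, Ces1f at chr8:93256236-93279747 and Ces1g at chr8:93302369-93337308. The others stand on the plus strand: Ces2a at chr8:104734003-104741634, Ces2c at chr8:104847068-104854483, Ces2e at chr8:104926260-104934672 and Ces3a at chr8:105048601-105058413. Ces1b and Ces1c were the most alike in coding sequence, with 90.87% identity over 1665 aligned bases, the highest of the 45 pairs. The 3 Ces2 genes were 82.65% to 83.75% identical to each other.

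The Ces1b and Ces1c genes, the closest pair, moved in opposite directions in germ-free pregnancy, so the sequences upstream of their starts are shown. The RefSeq table (GRCm38.p6) held upstream sequence for 7 of the 10 genes, not for Ces1d, Ces1f or Ces3a. Over the stretch that could be aligned, 137 of 144 aligned bases (95.1%) were identical. Capitals mark bases with no identical partner in the other gene, including insertions. The Ces1b stretch (chr8:93080018-93080161, minus strand) ends 1 base before the annotated start, and the Ces1c stretch (chr8:93131371-93131530, minus strand) ends 88 bases before it.
Ces1b: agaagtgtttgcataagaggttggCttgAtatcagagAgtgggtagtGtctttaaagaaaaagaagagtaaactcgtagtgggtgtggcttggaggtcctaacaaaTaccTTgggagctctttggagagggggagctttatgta
Ces1c: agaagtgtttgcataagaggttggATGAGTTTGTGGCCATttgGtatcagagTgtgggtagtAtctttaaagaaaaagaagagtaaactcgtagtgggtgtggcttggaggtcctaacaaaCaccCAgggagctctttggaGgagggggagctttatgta
Ces1b also has a second RefSeq start, 77 bases further downstream, against which the alignment reached 219 bases at 95% identity. The same comparison of Ces1c with Ces1g gave 70.1% over 164 aligned bases.

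Ces2a was the gene called lower in most comparisons, and its upstream sequence (chr8:104733753-104734002, plus strand) is shown with motif matches in capitals. AGGTCA, the half-site of many nuclear receptors, occurs at 226 bases before the start, and TTNNGCAA, a C/EBP motif, occurs at 208 bases (minus strand) and 83 bases (plus strand) before it.
Ces2a: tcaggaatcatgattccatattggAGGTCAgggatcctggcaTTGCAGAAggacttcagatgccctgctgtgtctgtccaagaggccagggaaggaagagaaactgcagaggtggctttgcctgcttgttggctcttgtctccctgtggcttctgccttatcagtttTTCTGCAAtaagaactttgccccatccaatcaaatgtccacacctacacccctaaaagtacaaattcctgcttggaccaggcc
Both strands of the 250 bases were searched, and no match overlapped another. The nuclear receptor motif was found in 14% and the C/EBP motif in 9.56% of all 32851 upstream sequences of that length. Among the other genes matched, the C/EBP motif occurred once each in Ces1b, Ces1c and Ces2e, and the nuclear receptor motif in none. A match of letters is not evidence of binding.

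The ends of the coding sequences differ in a way that bears on where the proteins go, with the stop codon in capitals and the codons of the retention signal, where there is one, just before it. Ces1c encodes the secreted esterase of mouse plasma, and Ces1d a retained triacylglycerol hydrolase.
Ces1b: cacagagaacacaaaTGA
Ces1c: cacacagaacacaaaTGA
Ces1d: gaacatgttgagctcTGA
Ces2a: aagcatgcagagctgTAG
Ces1b and Ces1c end with the same 13 bases, which none of the other 8 members carry. Reads from such similar genes are hard to assign. Of all 31-base windows of the longest coding transcript, 23.9% in Ces1b and 30.1% in Ces1c also occur in another gene, against 5.54% to 8.66% in the other Ces1 genes. The share was 37.4% in Ces2a (30.9% with the pseudogene Gm7208, which held 24.2 estimated counts over all libraries), 58.2% in Ces2c (50.2% with Ces2d-ps, 69 counts), 8.77% in Ces2e and 42.6% in Ces3a, all of it with the expressed gene Ces3b. The submitters' processing notes name Salmon 0.11.3, and the counts are estimates. How well such reads were divided between these genes cannot be checked from the counts. The values of Ces1b, Ces1c, Ces2a, Ces2c and Ces3a in particular are therefore uncertain.

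Levels between genes were compared per length, as CPM per kilobase of that transcript (CPM per kb). Ces1c was the most abundant member, with a mean level of 1641 CPM per kb over the 22 libraries. Ces3a followed at 317, Ces1d at 259, Ces1f at 173, Ces1g at 113 and Ces2a at 104 CPM per kb. Ces1e (50.1), Ces1b (42.1), Ces2e (33.1) and Ces2c (17.8 CPM per kb) were the least abundant. With the length of all exons joined, Ces1f and Ces1g traded places and the other 8 kept theirs.

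Ces1c alone exceeded the other 9 genes together in 21 of 22 mice. In non-pregnant mice its share of the members' summed CPM per kb was 52.6% ± 2.05 (SD, n = 6) in conventional and 54.5% ± 1.82 (SD, n = 6) in germ-free animals. In pregnant mice the share was 63.1% ± 4.74 (SD, n = 5) and 67.2% ± 2.90 (SD, n = 5). Within each microbiota status the shares did not overlap: the highest non-pregnant share was 55.1% in conventional and 57.9% in germ-free mice, and the lowest pregnant share 56.3% and 63.3%. Such shares do not depend on the scaling between libraries. The Ces2a share was 6.06% ± 0.51 in conventional and 4.44% ± 2.01 in germ-free non-pregnant mice (SD, n = 6 each), and 3.53% ± 0.86 and 1.47% ± 0.33 in the pregnant groups (SD, n = 5 each).

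**Figure D1:**
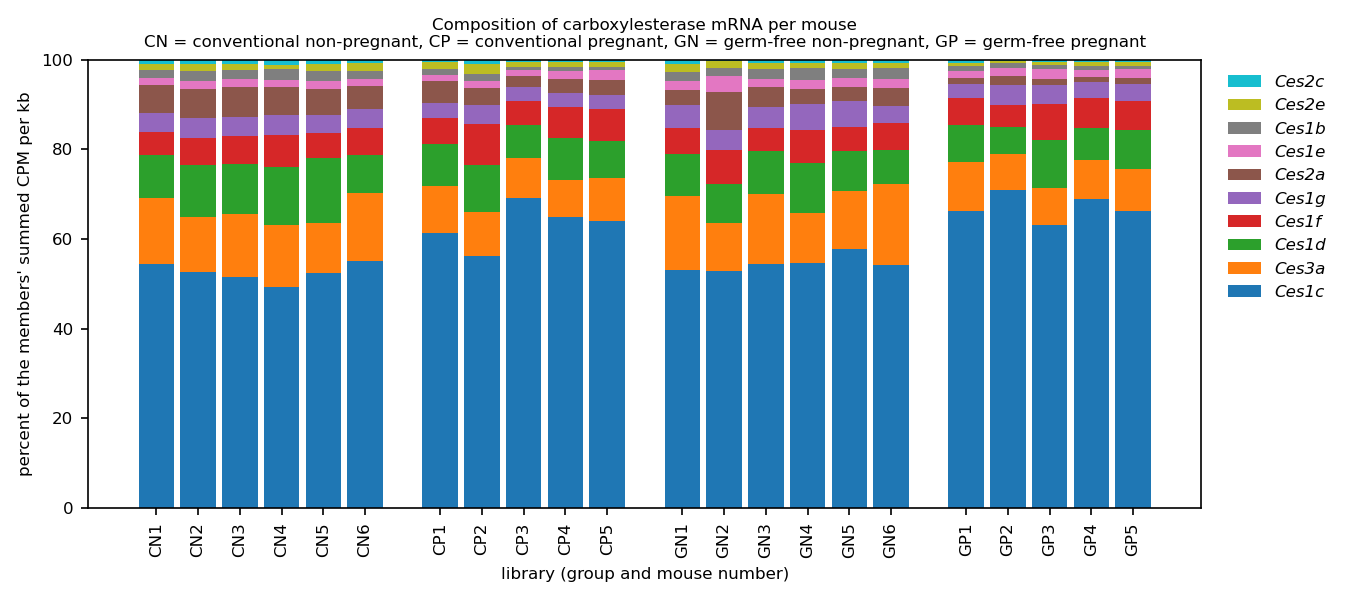
Each bar is 1 mouse, and its segments (vertical axis, percent) are the shares of the 10 genes in their summed CPM per kb. The Ces1c segment at the base is between 49.4% and 57.9% in non-pregnant and between 56.3% and 70.9% in pregnant mice.

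In conventional mice, pregnancy went with lower Ces1b and Ces2a, at about 0.47 and 0.59 of the non-pregnant level, and none of the other 8 members passed the test. Thus 0 of the 10 were called higher and 2 lower at an adjusted p under 0.05 (edgeR quasi-likelihood test, Benjamini-Hochberg adjustment over all genes tested), where 5.49% of all genes tested were called higher and 3.52% lower. The members' median log2 change was -0.32, and that of all genes tested was 0.04. In germ-free mice, pregnancy again went with lower Ces1b and Ces2a, and there Ces1c and Ces1f were also called higher. That made 2 of 10 higher, against 7.15% of all genes, and 2 lower, against 3.6%. The members' median log2 change was 0.00 in germ-free mice, and that of all genes -0.02.

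**Figure D2:**
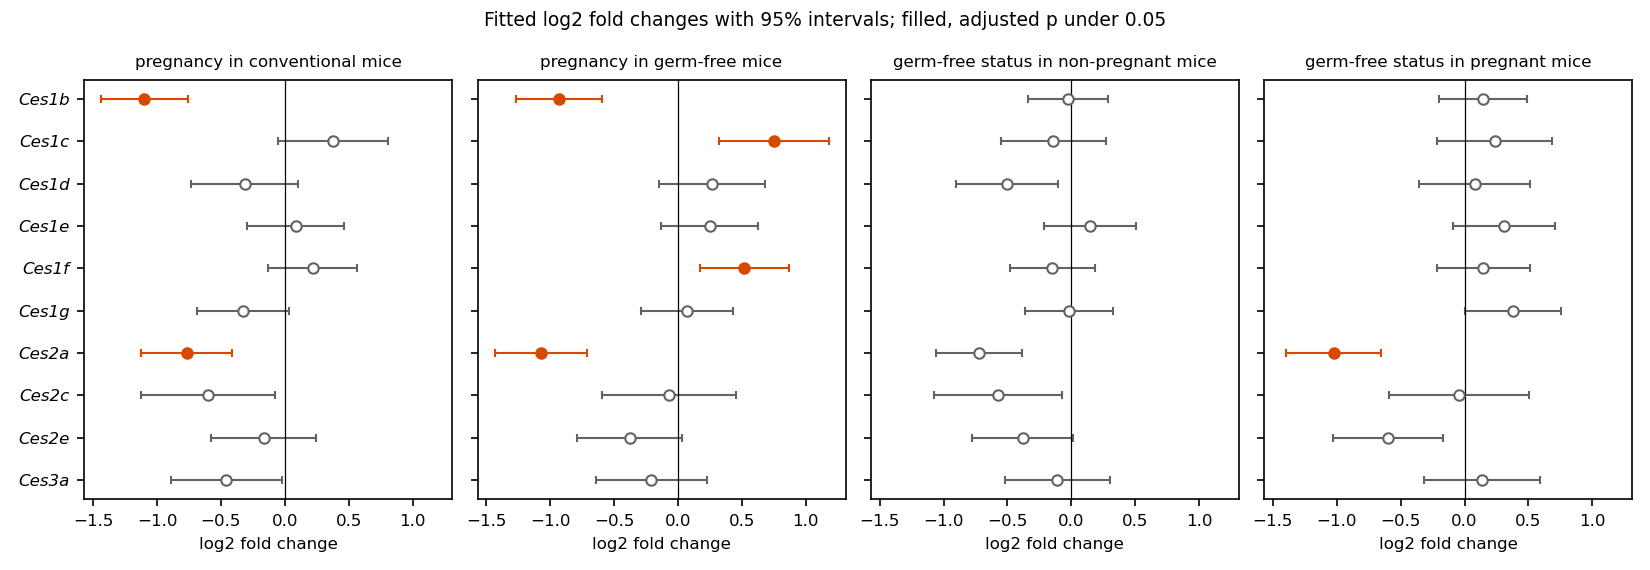
Points are fitted log2 fold changes (horizontal axis) of the 10 genes in 4 comparisons, pregnant over non-pregnant and germ-free over conventional, and bars are 95% confidence intervals. Filled points passed an adjusted p under 0.05, as Ces1b and Ces2a did in both pregnancy comparisons.

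Of the closest pair, Ces1b was at 76.5, 108, 111, 131, 118 and 105 CPM in the conventional non-pregnant mice (median 110), and at 56.5, 51.9, 53.5, 51.7 and 39.1 CPM in the pregnant ones. Every pregnant mouse was below every non-pregnant one. This is a log2 change of -1.10 ± 0.16 (SE; edgeR adjusted p = 9.27e-05). In germ-free mice Ces1b ran from 61.9 to 132 CPM (median 112, n = 6) without pregnancy, and was at 56.5, 63.1, 46.4, 55.6 and 57.8 CPM with it. The groups overlapped only through the low non-pregnant mouse 2 and pregnant mouse 2. Here the log2 change was -0.93 ± 0.16 (SE; edgeR adjusted p = 0.00042). Leaving out mouse 2 of the germ-free non-pregnant group gave -1.05.

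Ces1c, the plasma esterase that also hydrolyses many ester prodrugs in mouse blood, did not follow Ces1b. Its level ran from 2284 to 2891 CPM (median 2607, n = 6) in conventional non-pregnant mice, and was 2553, 1684, 5255, 3792 and 3460 CPM in the pregnant ones. The pregnant mice lay on both sides of the non-pregnant range, mouse 2 lowest. The change of 0.38 ± 0.21 on the log2 scale (SE; edgeR adjusted p = 0.304) was not called, and without mouse 2 it was 0.54 (adjusted p = 0.0662).

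In germ-free mice Ces1c ran from 1600 to 2811 CPM (median 2390, n = 6) without pregnancy and was 3731, 4105, 3662, 4150 and 4067 CPM with it. Every pregnant mouse was above every non-pregnant one, and the log2 change was 0.75 ± 0.21 (SE; edgeR adjusted p = 0.0197). The call was lost without germ-free pregnant mouse 5 (0.72, adjusted p = 0.0542), with no filter on low counts (adjusted p = 0.0951) and with library totals in place of TMM scaling (0.43, adjusted p = 0.114). That last setting moved the median log2 change of all genes from -0.02 to -0.33 in this comparison. A change of scaling shifts all genes about alike, so the distance of Ces1c from that median cannot decide between the scalings. TMM factors were 0.755 to 0.961 in the germ-free pregnant and 0.930 to 1.22 in the germ-free non-pregnant group.

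Other liver genes moved at the same time. In germ-free pregnancy the summed hepatocyte markers went from a range of 49985 to 86087 CPM to one of 119724 to 180840 CPM. Alb made up most of these sums, at 36217 to 63488 and 94390 to 149355 CPM. Of the 6 changes 3 were positive and 3 negative, with a median of 0.29 on the log2 scale. Alb, Apoa1 and Asgr1 were called higher and Ttr lower. In conventional pregnancy 2 of the 6 were called higher and 2 lower, with sums of 59454 to 84210 and 64154 to 229895 CPM. All 7 erythroid markers were called higher in germ-free pregnancy, from 237 to 1768 CPM summed without pregnancy to 1759 to 3573 CPM with it. In conventional mice 2 of the 7 were called higher, and sums ran from 448 to 862 without and 369 to 2251 CPM with pregnancy. All 7 changes were positive there too, each at an unadjusted p under 0.05 (edgeR). For the difference between the pregnancy changes, 0 of the 7 had an unadjusted p under 0.05. Acute-phase genes were called higher in conventional pregnancy for 5 of 6, with sums of 1883 to 2509 CPM without and 1600 to 16166 CPM with pregnancy. Mouse 2 held the top of that range: Saa1 was 16.4 to 26.1 CPM in the other 4 pregnant and 17.5 to 34.2 CPM in the non-pregnant mice. In germ-free pregnancy the acute-phase sums did not overlap, at 1988 to 3163 CPM without and 3760 to 5196 CPM with pregnancy, and Hp made up most of them. There 6 of 6 acute-phase changes were positive, 3 had an unadjusted p under 0.05 and 0 were called. Cholangiocyte markers summed to 35.0 to 93.0 CPM without and 28.1 to 29.8 CPM with conventional pregnancy, and 1 of 5, Spp1, was called lower there. In germ-free pregnancy these sums were 46.2 to 74.3 and 23.6 to 137 CPM, the highest in mouse 2, with 1 of 5 called higher (Krt19) and 1 lower (Spp1). Krt19 was at least 2.43 CPM in the other 4 pregnant mice and at most 2.34 CPM in the non-pregnant ones. Of 6 stellate markers, 1 was called higher (Col3a1) and 1 lower (Lrat) in conventional pregnancy, and 1 lower (Lrat) in germ-free pregnancy, where 1 of 6 endothelial markers, Stab2, was called higher. All 6 Kupffer markers had positive changes in conventional pregnancy and 0 were called (2 at an unadjusted p under 0.05), and 0 of 6 leukocyte markers were called in either (3 and 0 at an unadjusted p under 0.05). Summed Kupffer, endothelial, stellate and leukocyte markers overlapped between the groups of every comparison. For germ-free status in pregnant mice all 6 Kupffer and all 6 leukocyte changes were negative, with medians of -0.888 and -0.996 (log2). In each list 3 had an unadjusted p under 0.05 (edgeR) and 0 were called. Of 6 acute-phase changes there, 5 were negative and 1 positive, with 4 at an unadjusted p under 0.05 and 0 called. Cholangiocyte changes were positive for 4 of 5 and erythroid changes for 7 of 7, with 0 called. The part of these markers in the carboxylesterase changes was not tested. In bulk tissue, fewer cells of a type and less RNA per cell cannot be told apart.

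The ratio of Ces1c to Ces1b, which needs no scaling between libraries, separated pregnant from non-pregnant livers in these mice. In CPM per kb it was 26.1 ± 4.2 (SD, n = 6) in conventional and 24.1 ± 3.26 (SD, n = 6) in germ-free non-pregnant mice. In the pregnant mice it was 72.6 ± 30.1 (SD, n = 5) and 76.3 ± 6.25 (SD, n = 5). Non-pregnant mice of both statuses ran from 20.0 to 32.1, and pregnant mice from 34.8 to 105. The ratio was chosen after its values were seen and is given without a test.

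Ces1d and Ces1f encode hydrolases of stored triacylglycerol in hepatocytes. Ces1f was called higher in germ-free pregnancy: it was 239 to 348 CPM (median 271, n = 6) without pregnancy and 360, 302, 487, 423 and 421 CPM with it. Pregnant mouse 2 lay inside the non-pregnant range. The log2 change of 0.52 ± 0.17 (SE) was at the edge of the threshold (edgeR adjusted p = 0.0498). Without it the change was 0.60 (adjusted p = 0.0308). The call was kept in 3 of 11 fits that each left out 1 mouse, with adjusted p between 0.0308 and 0.152 over those fits. It was also lost with RLE size factors (adjusted p = 0.0599), without mitochondrially encoded genes (0.0577), with no filter (0.159) and with library totals (log2 change 0.23, adjusted p = 0.354). In conventional mice the Ces1f log2 change was 0.22 ± 0.17 (adjusted p = 0.501).

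For Ces1d the pregnancy log2 change was -0.32 ± 0.20 in conventional (edgeR adjusted p = 0.395) and 0.26 ± 0.20 in germ-free mice (adjusted p = 0.457). Its CPM was 616 ± 152, 495 ± 113, 435 ± 92.7 and 523 ± 114 (SD) in conventional non-pregnant (n = 6), conventional pregnant (n = 5), germ-free non-pregnant (n = 6) and germ-free pregnant mice (n = 5). The difference between its pregnancy changes was 0.58 ± 0.29, the largest among the members, and did not pass (adjusted p = 0.863, unadjusted p = 0.0536).

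Ces1e, also known as egasyn, holds beta-glucuronidase in the endoplasmic reticulum. It was at 93.3 ± 13.2, 98.9 ± 34.2, 103 ± 11.8 and 122 ± 20.2 CPM (SD) in the same order of groups. Its pregnancy log2 changes were 0.08 ± 0.18 in conventional (edgeR adjusted p = 0.85) and 0.25 ± 0.18 in germ-free mice (adjusted p = 0.443). Gusb, the gene of the bound enzyme, rose in both, by 1.23 ± 0.15 (adjusted p = 7.45e-06) and 1.34 ± 0.15 (adjusted p = 1.79e-06), with no overlap between groups.

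Ces1g, a hydrolase of triacylglycerol and cholesteryl esters, was at 280 ± 25.9, 224 ± 52.0, 277 ± 69.5 and 291 ± 43.0 CPM (SD). Its pregnancy log2 changes were -0.33 ± 0.17 (edgeR adjusted p = 0.286) and 0.07 ± 0.17 (adjusted p = 0.851). With library totals the latter was -0.25. Neither was called.

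Ces2a, annotated as a hydrolase of pyrethroid esters, was the other gene lower in pregnancy under both microbiota statuses. In conventional non-pregnant mice it was at 275, 300, 364, 346, 333 and 291 CPM, and in pregnant mice at 214, 120, 200.1, 198 and 202 CPM. Every pregnant mouse was lower, and mouse 2 stood well below the other 4. Fitted on the log2 scale, the change was -0.77 ± 0.17 (SE; edgeR adjusted p = 0.00562), and -0.65 (adjusted p = 0.0166) without that mouse.

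In germ-free non-pregnant mice Ces2a was at 159.7, 274, 218, 162, 162 and 184 CPM, and in pregnant mice at 89.0, 126, 79.8, 77.8 and 87.0 CPM. Again the ranges did not overlap. On the log2 scale the change was -1.07 ± 0.17 (SE; edgeR adjusted p = 0.000181), and -1.21 (adjusted p = 7.86e-05) without pregnant mouse 2. The pregnancy calls of Ces2a and of Ces1b were kept in all 8 other settings and in all 11 fits without 1 mouse, in each status.

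The other members of the plus-strand block were lower on average in pregnancy, without a call. Ces2c, annotated as an acylcarnitine hydrolase, was at 46.6 ± 8.50 and 30.8 ± 8.93 CPM (SD) in conventional non-pregnant and pregnant mice, a log2 change of -0.60 ± 0.25 (edgeR adjusted p = 0.156). In germ-free mice it was at 31.3 ± 11.0 and 29.8 ± 7.96 CPM, a change of -0.07 ± 0.25 (adjusted p = 0.903). Ces3a changed by -0.46 ± 0.21 (adjusted p = 0.199) and -0.21 ± 0.21 (adjusted p = 0.594), from 743 ± 108 to 542 ± 162 CPM in conventional and from 689 ± 195 to 595 ± 69.8 CPM in germ-free mice. The 95% intervals of the Ces3a change, -0.89 to -0.02 and -0.64 to 0.22, lie wholly below 0 in conventional mice and on both sides of 0 in germ-free mice, before any adjustment over genes.

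Ces3b, which shares 42.6% of the Ces3a windows, was called lower in both. It ran from 221 to 398 CPM in conventional non-pregnant and from 21.1 to 173 CPM in conventional pregnant mice, a log2 change of -1.35 ± 0.38 (edgeR adjusted p = 0.025). In germ-free mice it ran from 91.9 to 311 and from 45.7 to 135 CPM, a change of -1.42 ± 0.38 (adjusted p = 0.016). Whether Ces3a and Ces3b differed in their change was not tested.

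**Figure D3:**
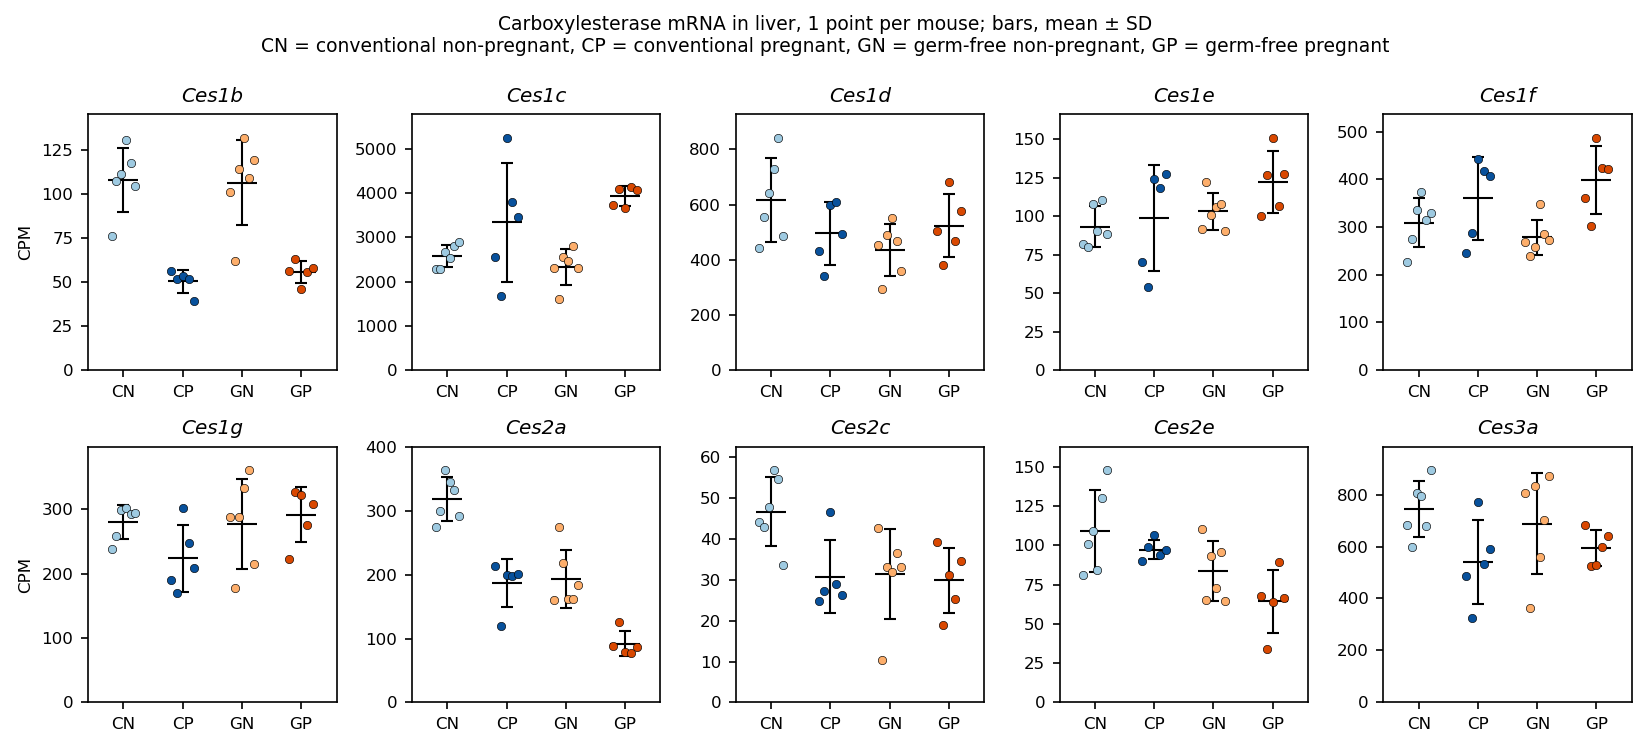
Each panel is 1 gene, with CPM on a linear vertical axis from 0, 1 point per mouse, and bars for mean ± SD in the 4 groups. Ces1b is lower in both pregnant groups, Ces1c is high and tight in the germ-free pregnant group (3662 to 4150 CPM), and Ces2a steps down from 318 CPM in conventional non-pregnant to 92.0 CPM in germ-free pregnant mice.

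Germ-free status went with lower Ces2a and with no other called change among the members. Non-pregnant germ-free mice were compared with non-pregnant conventional mice, and 0 of 10 members were called in either direction, where 0.0879% of all genes were called higher and 0.0691% lower. At an unadjusted p under 0.05 (edgeR) there were 3 of the 10 members, Ces1d, Ces2a and Ces2c, and 957 of all 15928 genes tested. DESeq2 called 1 of the 10 lower, Ces2a, and 62 genes lower in all. Pregnant germ-free mice had 0 members called higher (0.0816% of all genes) and 1 lower, Ces2a (0.0502% of all genes). All germ-free results are also results on older mice.

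Ces2a had a mean of 318 ± 34.6 CPM in conventional and 193 ± 45.5 CPM in germ-free non-pregnant mice (SD, n = 6 each). The ranges touched without crossing, with the highest germ-free mouse at 274.1 and the lowest conventional mouse at 275.1 CPM. The log2 change was -0.72 ± 0.16 (SE), with an edgeR adjusted p of 0.0819 and an unadjusted p of 2e-04. DESeq2 gave an adjusted p of 0.00487. That highest germ-free mouse was mouse 2, the library lowest in its group for 7 other members. Without it the change was -0.85 and passed (adjusted p = 0.0202).

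In pregnant mice Ces2a was at 187 ± 37.7 CPM in conventional and 92.0 ± 19.8 CPM in germ-free animals (SD, n = 5 each). Mouse 2 of each group crossed, at 120.3 CPM in the conventional and 126.3 CPM in the germ-free group, and the other 4 of each group did not overlap. The log2 change was -1.02 ± 0.18 (SE; edgeR adjusted p = 0.0222). The call was lost when only these groups were fitted (adjusted p = 0.154), and in 5 of 10 fits without 1 mouse: conventional pregnant mouse 4 (0.0564) or 5 (0.064), and germ-free pregnant mouse 3 (0.0588), 4 (0.0765) or 5 (0.0712). The change itself stayed between -1.16 (without germ-free pregnant mouse 2, adjusted p = 0.00651) and -0.97 in those 10 fits.

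A contrast of germ-free status averaged over both pregnancy states was added after the data were seen. It called 0 members higher (0.389% of all genes) and 1 lower (0.364%), again Ces2a, at -0.87 ± 0.12 (SE; edgeR adjusted p = 0.000499). This call was kept in all 22 fits without 1 mouse, with changes from -0.94 to -0.85. Along the 4 groups the mean Ces2a level was thus 318, 193, 187 and 92.0 CPM in conventional non-pregnant, germ-free non-pregnant, conventional pregnant and germ-free pregnant mice, and the middle pair differ by less than either SD.

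Ces2e, likewise annotated as a pyrethroid hydrolase, was at 90.1, 98.6, 107, 94.0 and 97.0 CPM in conventional pregnant and at 67.7, 33.7, 63.9, 89.4 and 66.8 CPM in germ-free pregnant mice, and no germ-free value reached the conventional range. Its log2 change was -0.60 ± 0.21 (SE; edgeR adjusted p = 0.325), and -0.43 (adjusted p = 0.559) without germ-free mouse 2, the lowest. In non-pregnant mice the change was -0.38 ± 0.19 (adjusted p = 0.837). Averaged over pregnancy states it was -0.49 ± 0.14 (adjusted p = 0.127), and DESeq2 called that contrast (adjusted p = 0.0419). Pregnancy changed Ces2e by -0.16 ± 0.20 in conventional (adjusted p = 0.707) and -0.38 ± 0.20 in germ-free mice (adjusted p = 0.255), neither called.

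For the remaining 8 genes the germ-free changes in non-pregnant mice ran from -0.57 ± 0.24 (Ces2c, edgeR adjusted p = 0.67) to 0.14 ± 0.17 (Ces1e, adjusted p = 0.999). Ces1d stood at -0.50 ± 0.19 (adjusted p = 0.576). In pregnant mice they ran from -0.04 ± 0.26 (Ces2c, adjusted p = 0.98) to 0.38 ± 0.18 (Ces1g, adjusted p = 0.467). Ces1b, the member with the largest pregnancy change in conventional mice, had germ-free changes of -0.02 ± 0.15 and 0.15 ± 0.17, with 95% intervals of -0.34 to 0.29 and -0.20 to 0.49.

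None of the 10 genes had a pregnancy change that passed the test of a difference between germ-free and conventional mice. By edgeR, 0% of all genes tested were called in that contrast, and at an unadjusted p under 0.05 there were 0 members and 903 genes in all. DESeq2 called no member and 7 genes in all. For Ces1c the difference was 0.38 ± 0.29 (edgeR adjusted p = 0.898, 95% interval -0.23 to 0.98) and for Ces2a -0.30 ± 0.24 (adjusted p = 0.901, interval -0.80 to 0.20). The call of Ces1c and Ces1f in germ-free pregnancy alone is therefore not shown to be a difference from conventional pregnancy.

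Within groups, mice with more mRNA of 1 Ces1 gene tended to have more of the others. Correlations of log2 CPM were taken over 22 libraries after removing group means and are given as a description, since the points share library depth and scaling. Over the 15 Ces1 pairs the median r was 0.59, with the lowest value, -0.23, for Ces1b with Ces1e. The median was 0.36 over the 24 pairs of genes in different blocks, and 0.18 over the 6 pairs of the plus-strand block. The highest r of all 45 pairs were those of Ces1c with Ces3a (0.78), which lie in different blocks, and Ces1c with Ces1g (0.77). Ces1c, Ces1g and Ces3a were each lowest of their group in germ-free non-pregnant mouse 2 and in conventional pregnant mouse 2. Those mice were lowest of their groups for 7 and 6 of the 10 genes. Ces2a had an r from -0.46 (Ces2e) and -0.44 (Ces2c) up to 0.52 (Ces1e). In the germ-free non-pregnant group mouse 2 had the highest Ces2a and the lowest Ces2c. In the germ-free pregnant group mouse 2 had the highest Ces2a and the lowest Ces2c and Ces2e. How far these r rest on the mice numbered 2 was not tested. Before the group means were removed, Ces1b and Ces1c had an r of -0.42, and after it 0.32.

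**Figure D4:**
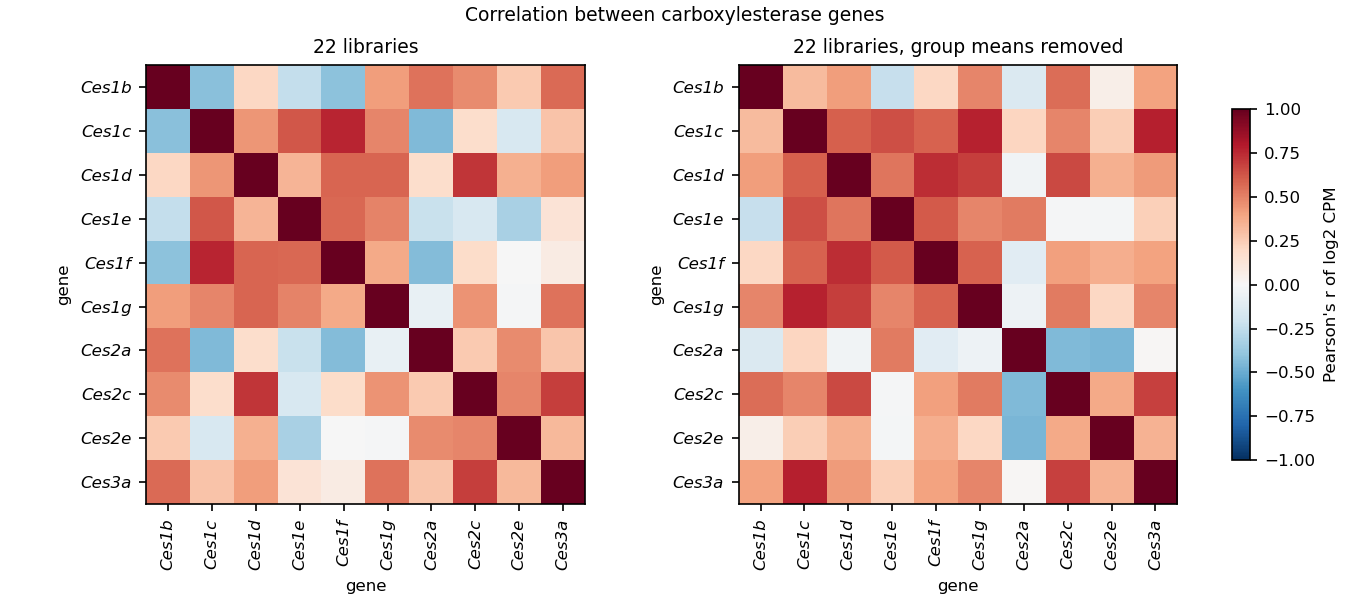
Colours give Pearson's r of log2 CPM between each pair of genes over 22 libraries, on the left as measured and on the right after removal of group means. On the right most of the squares among Ces1 genes are positive, while Ces2a is at -0.44 with Ces2c and -0.46 with Ces2e.

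Outside the family, the gene whose log2 CPM followed each member most closely over the 22 libraries was found by Pearson's r, with group means left in. Each is the highest r over all tested genes without a Ces symbol, so a high value is partly due to that choice. For Ces1c it was Stard5, a lipid transfer protein, at an r of 0.94 (0.91 within groups). Ces1b was nearest to Fam234b at 0.91 (0.74 within groups) and Ces2a to Fam25c at 0.89 (0.64 within groups). For Ces3a it was Slc27a2, a fatty acid transporter and acyl-CoA synthetase, at 0.88, for Ces1f Ppp1r15b at 0.87, and for Ces2c Dio1, the thyroid hormone deiodinase, at 0.84. Ces1g was nearest to Sord (0.81), Ces2e to Dpf2 (0.81), Ces1d to Hnf4aos (0.80) and Ces1e to Gatb (0.80). Hnf4aos lies antisense to Hnf4a, and without strand, reads from any stretch that both genes cover cannot be told apart. How much they overlap was not measured.

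Of 10 other carboxylesterase genes, 4 passed the filter: Ces2f, Ces2g, Ces3b and Ces4a. The latter pair were called lower in both pregnancy comparisons, and none of the 4 was called in a germ-free comparison. Ces4a was near the detection limit, between 0.190 and 1.65 CPM in conventional non-pregnant and at most 0.139 CPM in germ-free pregnant mice. Its log2 changes were -2.15 ± 0.61 (edgeR adjusted p = 0.0275) and -3.45 ± 0.74 (adjusted p = 0.00281). Ces2g, at 21.5 to 48.0 CPM, was not called. Of the 6 that did not pass, Ces1h held 5 and Ces5a 8 estimated counts in total.

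Among 20 other ester, amide and lipid hydrolases, 3 rose and 2 fell in conventional pregnancy, and 3 rose and 3 fell in germ-free pregnancy. Their median log2 changes were -0.13 and 0.02, beside 0.04 and -0.02 for all genes. Besides Gusb, the paraoxonase gene Pon3 rose in both, by 0.45 ± 0.13 (edgeR adjusted p = 0.028) and 0.52 ± 0.13 (adjusted p = 0.00828). Pnpla3, a lipid droplet acyl hydrolase, rose by 3.15 ± 0.65 in conventional pregnancy (adjusted p = 0.00274), and Abhd6, a monoacylglycerol lipase, fell by 0.71 ± 0.20 on the log2 scale (adjusted p = 0.031). In germ-free pregnancy Bche, butyrylcholinesterase, rose by 0.88 ± 0.21 (adjusted p = 0.0064), and Ephx1, microsomal epoxide hydrolase, fell by 0.90 ± 0.25 (adjusted p = 0.0208). In germ-free comparisons none of the 20 was called in either pregnancy state, and averaged over both 1 fell, Pnpla3 (-1.99 ± 0.48, adjusted p = 0.0497).

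Lipoprotein assembly and lipid droplet genes, the setting in which Ces1d and Ces1g act, were called in both directions. Of 12, in conventional pregnancy 3 rose and 1 fell, and in germ-free pregnancy 3 rose and 2 fell, with medians of 0.13 and 0.09. Tm6sf2, which loads lipid onto lipoproteins, rose by 0.62 ± 0.16 (edgeR adjusted p = 0.0155) and 0.92 ± 0.16 (adjusted p = 0.000366). Mttp, the microsomal triglyceride transfer protein, rose by 0.55 ± 0.17 (adjusted p = 0.0431) and 0.59 ± 0.17 (adjusted p = 0.023). Abhd5, the activator of adipose triglyceride lipase, rose by 0.66 ± 0.17 in conventional pregnancy (adjusted p = 0.0154). Apob, the lipoprotein backbone, rose by 0.72 ± 0.19 in germ-free pregnancy (adjusted p = 0.0153), where the droplet gene Cidec fell by 1.32 ± 0.38 (adjusted p = 0.0261). Dgat1, which makes triacylglycerol, fell by 0.40 ± 0.10 (adjusted p = 0.0153) and by 0.34 ± 0.10 (adjusted p = 0.0316).

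Of 17 nuclear receptors and liver transcription factors, 2 rose and 0 fell in conventional pregnancy, and 1 rose and 1 fell in germ-free pregnancy. The medians were -0.04 and 0.11. Onecut1 rose by 1.36 ± 0.37 (edgeR adjusted p = 0.02) and Nfe2l2, the regulator of antioxidant genes, by 0.62 ± 0.14 (adjusted p = 0.00693) in conventional mice. Nr1h3, the liver X receptor alpha, rose by 0.52 ± 0.13 (adjusted p = 0.00981), and Nr0b2, a repressor of nuclear receptor targets, fell by 1.27 ± 0.34 (adjusted p = 0.0165) in germ-free mice. The xenobiotic receptors were named outside the rule, after their values were seen: Nr1i3 had log2 changes of -1.16 ± 0.39 (adjusted p = 0.0694) and -0.89 ± 0.39 (adjusted p = 0.159), and Nr1i2 of -0.34 ± 0.19 (adjusted p = 0.325) and -0.37 ± 0.19 (adjusted p = 0.241). No gene of this list or of the lipoprotein list was called in a germ-free comparison.

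Of the intestinal markers, Apoa4, which liver also expresses, was lower in germ-free mice, by 1.39 ± 0.21 on the log2 scale in non-pregnant (edgeR adjusted p = 0.0018) and by 1.18 ± 0.22 in pregnant animals (adjusted p = 0.0265), beside the lower Ces2a. Vil1, at 4.55 CPM in germ-free pregnant mouse 2 and at most 1.71 CPM elsewhere, was called higher in germ-free mice averaged over pregnancy states, by 2.98 ± 0.67 (adjusted p = 0.0335), and Fabp2, at 30.3 to 113 CPM, was not called. The defining markers Sis and Lct were at or near 0 in every library. Summed, the list ran from 172 to 283 CPM in conventional non-pregnant, 281 to 665 in conventional pregnant, 147 to 196 in germ-free non-pregnant and 169 to 330 CPM in germ-free pregnant mice. Its part in the Ces2a result was not tested. Exocrine pancreas markers summed to at most 29.0 CPM and adipocyte markers to at most 15.3 CPM.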

How the data were processed

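RNA from 22 livers was sequenced by the authors. The deposited table has 53392 gene rows of unscaled estimated counts. The submitters' processing notes name GRCm38.p6, edgeR 3.24.3 and Salmon 0.11.3. Neither the annotation release nor the summing to genes is stated in the sources used here, and the kit named in the labels' protocols does not mark strand. Versioned identifiers were found in GENCODE M21 for 97.7% of rows, and unversioned ones for 99.93%.

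Estimated counts were rounded (0.0083% of counts), filtered with the defaults of edgeR 4.0.16 in R 4.3.3 (minimum count 10, total 15), scaled by TMM and fitted over 22 libraries with 1 term per group by the quasi-likelihood test. Standard errors were derived from the F statistic. A prior count of 2 was used for log2 CPM. Alternatives were DESeq2 1.42.0, RLE factors, library totals without TMM (added after the data were seen), no or a stricter filter (1 CPM in 5 libraries), leaving out mitochondrially encoded genes, the replicate number as a block, fitting only the groups compared, and leaving out each mouse. The script was tested on simulated data. No library repeated another: over 50 pairs within groups the lowest mean chi-square was 22.61 per gene.

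The members and lists were chosen with earlier results of these data known, so counts over them are descriptions. All members are named, with, per list and comparison, up to 4 called genes with the smallest p, a gene of that set being given for both pregnancy comparisons where called in both, and the nearest gene by Pearson's r. P-values measure the spread between mice, which the labels number separately.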

Additional observations from a re-analysis of the deposited data

Results flagged for a closer look

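In 7 of 40 sets of values (a gene in a group), 1 mouse lay further from its group than Dixon's 95% limit allows; chance gives about 1 in 20. The value given is the gap to the nearest mouse as a share of the group's range, both taken on log2 CPM. The CPM printed beside it are unlogged. Germ-free non-pregnant mouse 2 was low for Ces1b (0.649), Ces1c (0.655) and Ces2c (0.797), at 61.9, 1600 and 10.3 CPM, while its Ces2a was the highest of its group. Mouse 2 of the conventional pregnant group, with high Saa1 and Saa2, was low for Ces2a (0.868), at 120 CPM. Mouse 2 of the germ-free pregnant group was high for Ces2a (0.722), at 126 CPM, and is also the library with Krt19 at 62.8, Epcam at 19.1 and Des at 35.8 CPM, above all 21 others. Conventional pregnant mouse 5 was low for Ces1b (0.758), at 39.1 CPM, and mouse 3 of that group was high for Ces2c (0.75), at 46.5 CPM. The causes were not tested.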

How the results depend on the processing

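The 10 genes were read from each alternative fit. In germ-free pregnancy 2 members were called higher, 1 with RLE size factors and 1 without mitochondrially encoded genes. It was 0 with no filter, 0 with library totals, and 0 to 2 without 1 mouse. Over all genes, 1139 were called higher, 1093 with RLE size factors and 1082 without mitochondrially encoded genes. That count was 887 with no filter, 470 with library totals, and 810 to 1322 without 1 mouse. For germ-free status in non-pregnant mice 0 members were called lower, 1 by DESeq2 and 0 to 1 without 1 mouse. Over all genes these calls were 11, 62 and 5 to 14. In pregnant mice 1 member was called lower, 0 with only the groups compared and 0 to 1 without 1 mouse. Over all genes these calls were 8, 3 and 2 to 11. Averaged over pregnancy states, 1 member was called lower, and 2 by DESeq2, beside 58 and 140 of all genes. Library totals, which shift all genes, turned the sign of uncalled changes. In pregnancy these were Ces1e (-0.0396) in conventional mice, and Ces1d (-0.038), Ces1e (-0.058) and Ces1g (-0.25) in germ-free mice. For germ-free status they were Ces1g (0.0084) in non-pregnant mice, and Ces1b (-0.13), Ces1d (-0.12), Ces1f (-0.044) and Ces3a (-0.054) in pregnant mice. For the difference of the pregnancy change they were Ces1b (-0.11) and Ces1e (-0.019).

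Without 1 mouse, uncalled changes also crossed 0. In conventional pregnancy Ces1e ran from -0.025 to 0.24. In germ-free pregnancy Ces1g ran from -0.028 to 0.16 and Ces2c from -0.25 to 0.056. For germ-free status in non-pregnant mice Ces1b ran from -0.11 to 0.091, Ces1g from -0.11 to 0.084 and Ces3a from -0.19 to 0.021. In pregnant mice Ces1d ran from -0.035 to 0.17, Ces2c from -0.16 to 0.15 and Ces3a from -0.00027 to 0.30. The causes were not tested.

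Mice with the same number in different groups are not shown to be paired: 6 of 31 such pairs had an r above 0.1 (range -0.26 to 0.31). These included 4 of the 6 pairs of mice numbered 2, and 3 of the 5 pairs of germ-free groups. With the replicate number as a block, the pregnancy changes were -1.08 and -0.90 for Ces1b and -0.77 and -1.08 for Ces2a, and no member's call changed. Over all genes, DESeq2 called 55 higher and 62 lower for germ-free status in non-pregnant mice, where edgeR called 14 and 11, and 64 and 44 in pregnant mice, where edgeR called 13 and 8.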
